A study of Drosophila melanogaster with 6 samples.

Results

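The genes described here are 10 core regulators of the cell division cycle of Drosophila: the cyclins CycA, CycB, CycB3, CycD and CycE, the cyclin-dependent kinases Cdk1 and Cdk2, the phosphatase string (stg), the mitotic kinase polo, and fizzy (fzy). They were chosen by name, with earlier results of these data known. Their values were read from the probe sets that the array annotation gives to each symbol alone, older synonyms such as cdc2 included. Of the 10 genes, 6 had such a probe set, 8 probe sets in all among 18769 tested and 6 genes among 11982 measured. CycB, CycB3, CycD, CycE and Cdk2 had 1 probe set each and fzy had 3. CycA, Cdk1, stg and polo were matched to no probe set and were not analysed here, so the kinase that pairs with the mitotic cyclins is missing from every comparison.

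Cyclins rise and fall through the division cycle and switch on their kinase partners. CycD with Cdk4 and CycE with Cdk2 act in G1 and at the start of DNA synthesis, whereas CycA, CycB and CycB3 act with Cdk1 in mitosis after stg has removed the inhibitory phosphates from that kinase. In mitosis the anaphase-promoting complex (APC/C), activated by fzy, the fly Cdc20, marks mitotic cyclins and the anaphase inhibitor securin for destruction.

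The cells were of the S2 line, which came from late Drosophila embryos and resembles blood cells. S2 control cells were labelled wild type, and the other group was labelled as S2 cells with induced dBigH1, the embryonic linker histone, with 3 arrays in each group. Cells of both groups were exposed to 1 mM copper sulphate for 24 h, and the arrays were hybridised with RNA amplified from 25 ng per sample. The dBigH1::FLAG cells had been kept in hygromycin B and were moved to the medium of S2 cells for the experiment, so other differences between these 2 lines cannot be told apart from the induction of dBigH1, and no control line with an empty vector was analysed here. The labels number the replicates without naming separate cultures, so the p-values cover only sample to sample spread, possibly technical.

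BigH1 itself checked the labels: its log2 signal was 4.86, 5.42 and 5.30 in S2 control and 13.47, 13.47 and 13.43 in induced cells. Array medians lay between 6.31 and 6.33, and 3657 of 11982 genes (30.5%) passed the test in either direction. Of 10 blood cell markers 10 were measured and 10 had a mean above the median of all probe sets, among them Hml at 11.47 and Pxn at 12.25 in S2 control. Of these 10 markers 4 rose and 3 fell, with changes from -1.09 for the scavenger receptor Sr-CI to 0.65 for Pxn. These are changes of the brightest probe set of each gene, and a dimmer probe set of Pxn rose by 1.12. All 5 measured fat body and muscle markers lay below that median, and the germline genes vas and nanos did too. The measured neuronal genes elav, brp and nSyb all lay above it, at 10.06, 8.48 and 7.21 in S2 control. So did the germline genes aub and bam, at 10.28 and 9.44 in S2 control, of which aub fell by 0.62 and bam rose by 0.62. Among the control probe sets, the 5′ minus 3′ signal of Act5C was -1.26 ± 0.0869 (SD, n = 3) in S2 control and -1.79 ± 0.0778 (n = 3) in induced cells, and that of the matching GAPDH series was -1.92 ± 0.0443 and -1.73 ± 0.0487. In the other 4 control series the groups differed by 0.03 (actin), -0.08 (GAPDH), -0.08 (eIF-4a) and -0.04 (18S rRNA). The part of these marker and 5′ to 3′ differences in the changes given here was not tested.

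The first question was whether the S2 cells with dBigH1 differed from S2 control in the signal of the cyclins, of Cdk2 and of fzy. Of the 6 measured genes 4 rose and 0 fell, namely Cdk2, fzy, CycB3 and CycB, and the G1 cyclins CycD and CycE did not pass. Over all genes 14.5% rose and 16.0% fell. Among the genes brighter than the median of all probe sets, as these 6 were, 21.1% rose and 21.3% fell. The changes of the 6 genes ran from 0.09 to 0.66 on the log2 scale with a median of 0.26, against a median of -0.01 over all genes, and 0 of the 6 reached 2-fold. For 5 of the 6 genes every induced array was above every S2 control array, as it was for 21.8% of all genes and 31.0% of the brighter ones. "Rose" and "fell" stand for an adjusted p under 0.05 in limma, Benjamini-Hochberg adjusted over all tested probe sets, and all values are log2 signals or differences of them, induced minus S2 control.

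**Figure D1:**
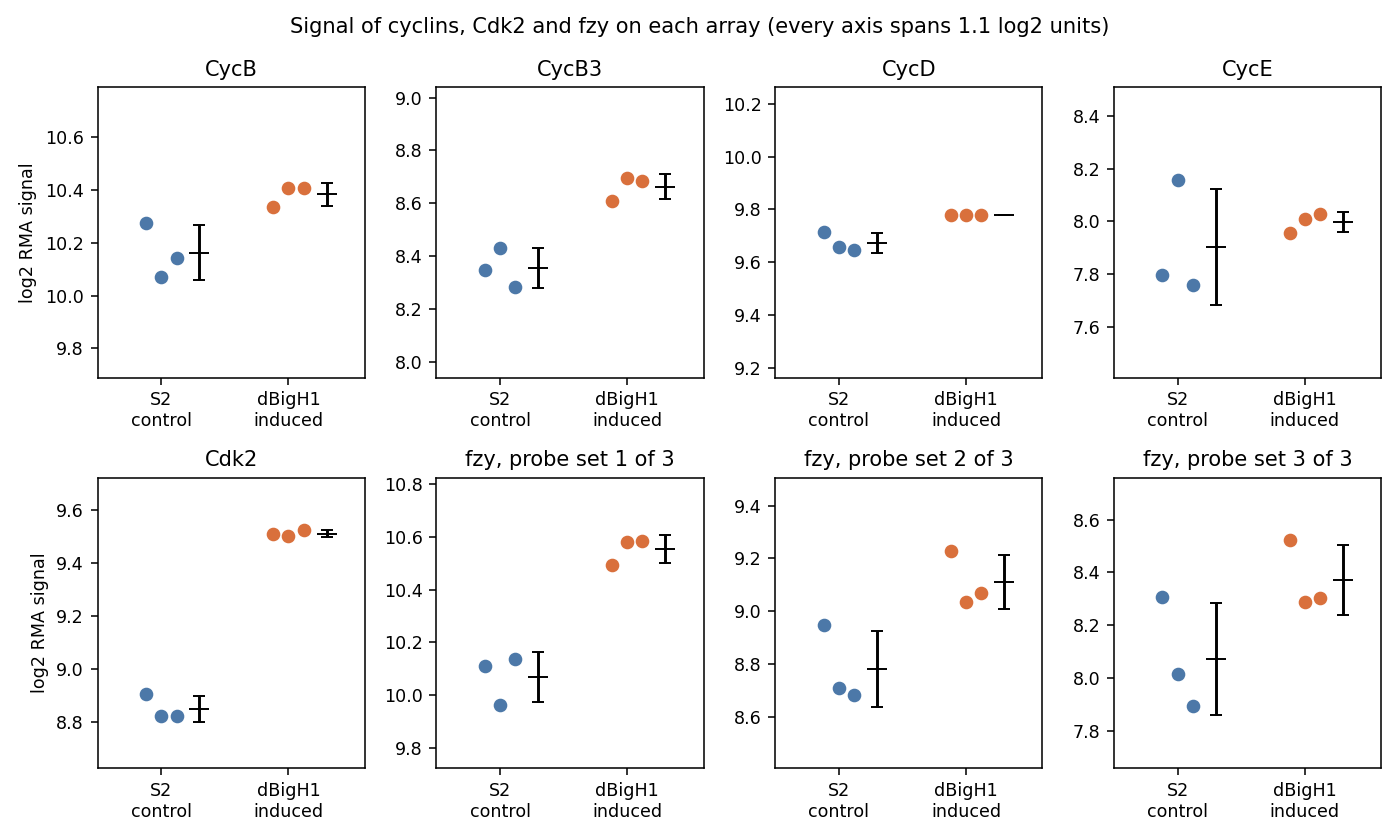
Log2 RMA signal (vertical axis, 1.1 log2 units in every panel) of the 8 probe sets of CycB, CycB3, CycD, CycE, Cdk2 and fzy on each of the 3 S2 control arrays (blue) and the 3 dBigH1-induced arrays (orange), with mean and SD as black bars. Cdk2 moved from about 8.85 to 9.51 with no overlap, while for CycE the S2 control array at 8.16 lies above the induced arrays.

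Cdk2, the kinase that drives entry into DNA synthesis with CycE, rose most of the 6. Its signal was 8.91, 8.82 and 8.82 on the S2 control arrays and 9.51, 9.50 and 9.53 on the induced arrays. The 3 induced arrays lay closely together and all stood well above S2 control. The change was 0.66 (SE 0.05, 95% interval 0.55 to 0.78, adjusted p = 1.17e-05), a 1.58-fold difference of the signal. Cdk2 was read by a probe set of the s type, whose probes may match more than 1 transcript.

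CycE, the cyclin partner of Cdk2, gave 7.80, 8.16 and 7.76 in S2 control and 7.95, 8.01 and 8.03 in induced cells. S2 control replicate 2 was the highest of the 6 arrays and the other S2 control arrays were the lowest, so the groups overlapped. The change was 0.09 (SE 0.10, 95% interval -0.12 to 0.31, adjusted p = 0.540). Without S2 control replicate 2 the change was 0.22 (SE 0.05, adjusted p = 0.0184), so this array decided the call. Over the 6 fits that leave out an array the change of CycE ran from 0.02 to 0.22.

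CycD, the G1 cyclin that works with Cdk4 and is linked to cell growth in flies, read 9.71, 9.66 and 9.64 in S2 control and 9.78 on each of the induced arrays. Every induced array was higher than every S2 control array, but by little. The change was 0.11 (SE 0.05, 95% interval -0.00302 to 0.22, adjusted p = 0.147). Like Cdk2 and CycE, CycD was read by an s-type probe set.

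Both measured mitotic cyclins rose. CycB3, a nuclear B-type cyclin that acts around anaphase, had signals of 8.35, 8.43 and 8.28 in S2 control and 8.61, 8.70 and 8.68 in induced cells. No induced array reached down to the S2 control range. The change was 0.31 (SE 0.06, 95% interval 0.18 to 0.44, adjusted p = 0.00311), 1.24-fold.

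CycB, the main cytoplasmic B-type cyclin, read 10.27, 10.07 and 10.14 in S2 control and 10.33, 10.41 and 10.41 in induced cells. The groups did not overlap, though the highest S2 control array came close to the lowest induced one. The change was 0.22 (SE 0.06, 95% interval 0.08 to 0.36, adjusted p = 0.0270), 1.17-fold. This call did not hold without S2 control replicate 2 (change 0.17, adjusted p = 0.0759), without S2 control replicate 3 (0.21, 0.0736), without induced replicate 2 (0.21, 0.0877) or without induced replicate 3 (0.21, 0.0853), and with the replicate number as a block its adjusted p was 0.0544.

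The APC/C activator fzy was higher in induced cells on all 3 of its probe sets. The brightest of them read 10.11, 9.96 and 10.14 in S2 control and 10.49, 10.58 and 10.59 in induced cells. On this probe set the induced arrays stood apart from S2 control, and the change was 0.48 (SE 0.06, 95% interval 0.35 to 0.62, adjusted p = 0.000329), 1.40-fold. The next read 8.95, 8.71 and 8.68 against 9.23, 9.04 and 9.07 and also rose, by 0.33 (SE 0.08, adjusted p = 0.0133). On the dimmest, S2 control gave 8.31, 8.01 and 7.89 and induced cells 8.52, 8.29 and 8.30. There the groups overlapped, because S2 control replicate 1 lay above 2 of the induced arrays, and the change of 0.30 (SE 0.10, adjusted p = 0.0616) did not pass. Counted by probe set, 5 of the 8 rose and 0 fell, beside 14.1% and 13.2% of all probe sets.

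**Figure D2:**
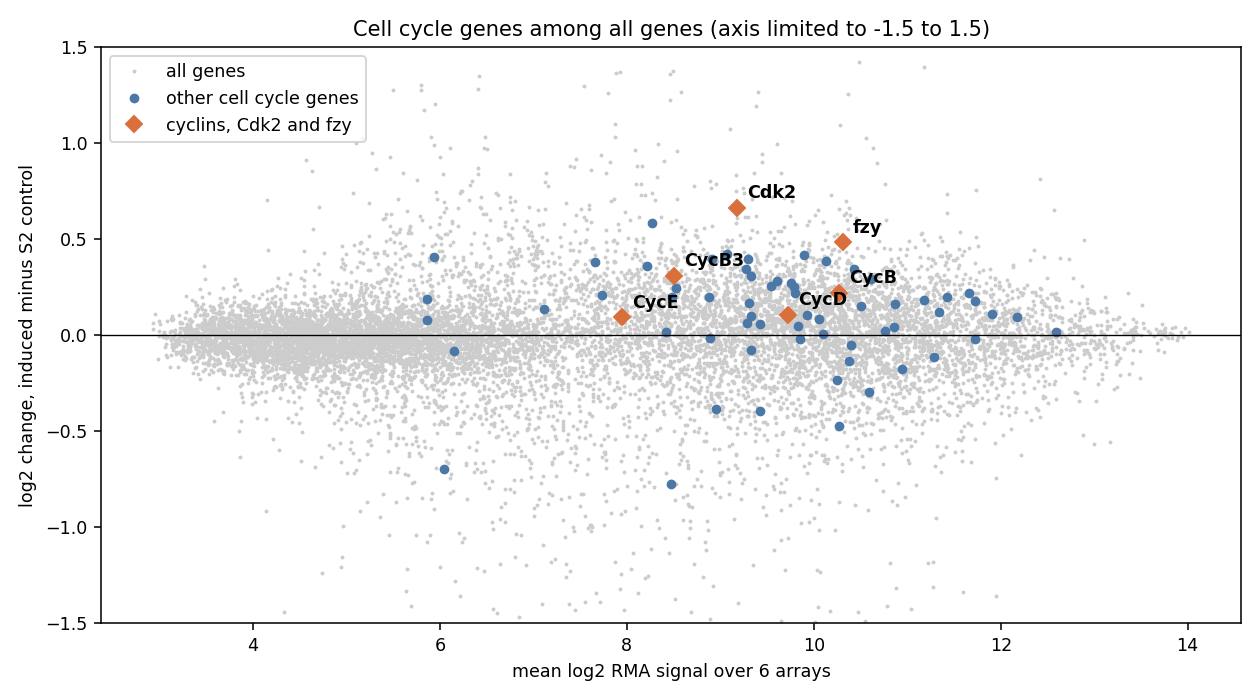
Log2 change (vertical axis, induced minus S2 control) against the mean log2 RMA signal over the 6 arrays (horizontal axis) for all 11982 genes (grey), the 62 other cell cycle genes (blue) and the 6 cyclins, Cdk2 and fzy (orange diamonds). All 6 diamonds lie above 0, from 0.09 for CycE to 0.66 for Cdk2, within the range of genes of like signal.

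The next comparison asked how the partners and regulators of these genes stood, in lists that were also chosen with earlier results of these data known. Over 5 lists of other cell cycle genes, 62 of 74 listed genes were measured, of which 28 rose, 8 fell and 26 did not pass, to be read beside the 14.5% of all genes that rose and 16.0% that fell (21.1% and 21.3% of the brighter ones). The counts of the other cyclins and kinases (4 of 14 rose and 3 fell) and of the dREAM genes (2 of 7 and 1) lay near those shares. Of the genes of G1 to DNA synthesis, 3 of 8 rose and 0 fell. That is 37.5% called in either direction, beside 30.5% of all genes, and the count is small. The 62 genes had a median change of 0.13 on the log2 scale, against -0.01 over all genes. The count of 28 was 17 without induced replicate 2, where the count of all genes that rose was 1285 instead of 1739. Of the calls named next, those of Cdk7, Cks30A, Rbf2, trbl, fzr and mip130 were each lost when any of 4 or 5 of the arrays was left out, with adjusted p-values of up to 0.104, 0.105, 0.0981, 0.0955, 0.0878 and 0.167.

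Among the other cyclins and kinases of the cyclin-dependent type, 4 of 14 measured genes rose, 3 fell and 7 did not pass, with a median change of 0.03. Cdk4, the kinase partner of CycD, moved opposite to Cdk2. Its signal was 10.48, 10.50 and 10.52 in S2 control and 10.05, 9.99 and 10.05 in induced cells. The groups lay far apart beside their spread, and Cdk4 fell by 0.47 (SE 0.05, adjusted p = 8.87e-05). Cdk4 was read by an s-type probe set too, as were CycK, Cdk12, Cul1 and fzr, which are named below. CycH and CycK, cyclins that act with Cdk7 and Cdk12 in transcription, fell by 0.30 (SE 0.05) and fell by 0.23 (SE 0.06). Cdk7, which activates other cyclin-dependent kinases, rose by 0.25 (SE 0.08) and CycJ, a cyclin known from the ovary, rose by 0.38 (SE 0.07). Of the small Cks subunits that bind Cdk1, Cks30A rose by 0.18 (SE 0.05), while Cks85A stood at 0.01 (SE 0.06, adjusted p = 0.957).

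To set a kinase against its own cyclin, the difference of their log2 signals was taken on each array for 6 pairs, which were chosen after the values had been seen. Relative to the S2 control mean, Cdk2 minus CycE was 0.17, -0.28 and 0.12 in S2 control and 0.61, 0.55 and 0.55 in induced cells. Cdk4 minus CycD was -0.07, 0.02 and 0.05 in S2 control and -0.56, -0.62 and -0.56 in induced cells. The groups did not overlap in either pair, with a shift towards the kinase in the first and towards the cyclin in the second.

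Cdk7 minus CycH shifted by 0.55, Cdk12 minus CycK by 0.28 and Cdk8 minus CycC by 0.12, all 3 without overlap. Cdk9 minus CycT, a pair that acts on RNA polymerase II, shifted by -0.12 with overlap. The two-sided exact permutation test gave p = 0.1 for the 5 pairs without overlap, the smallest that 3 against 3 arrays allow (0.12 after adjustment over 6 pairs), and p = 0.3 for Cdk9 minus CycT. With an array left out, Cdk2 minus CycE ran from 0.43 to 0.65 and Cdk4 minus CycD from -0.61 to -0.55.

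**Figure D3:**
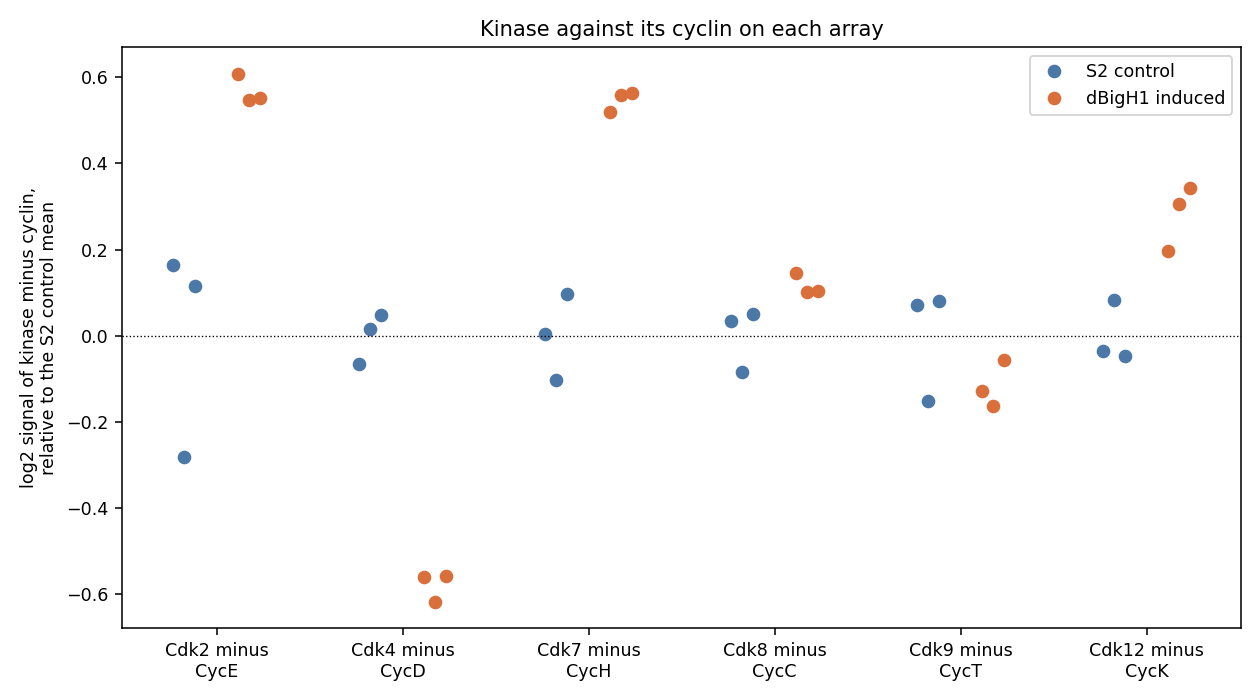
Log2 signal of a kinase minus that of its cyclin on each array, relative to the S2 control mean of the pair (vertical axis), for 6 pairs, with S2 control in blue and dBigH1 induced in orange. Induced arrays lie above S2 control for Cdk2 with CycE and Cdk7 with CycH and below it for Cdk4 with CycD.

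Regulators of the step from G1 to DNA synthesis were represented by 8 measured genes of 11, of which 3 rose and 0 fell, with a median change of 0.12. Among genes brighter than the median of all probe sets, as these 8 were, 21.1% rose and 21.3% fell. The retinoblastoma gene Rbf, whose protein holds back E2F factors until CycD and CycE kinases act on it, rose by 0.26 (SE 0.05, adjusted p = 0.00345). Its relative Rbf2 rose by 0.21 (SE 0.06) and the ubiquitin ligase scaffold Cul1 by 0.22 (SE 0.05). E2f2, the repressing E2F, had a change of 0.15 (SE 0.05, adjusted p = 0.0675) and did not pass. The Cdk2 inhibitor dap was matched to no probe set here, and the only one matched to E2f1 was shared with another gene and was not used.

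Of 15 measured genes of mitotic entry and mitotic kinases, 8 rose, 2 fell and 5 did not pass, with a median change of 0.20. The cofactor bora, known to help Aurora A activate Polo, had signals from 7.91 to 8.02 in S2 control and of 8.46, 8.58 and 8.65 in induced cells. The groups did not overlap, and bora rose by 0.59 (SE 0.06, adjusted p = 9.89e-05). Greatwall (gwl), the kinase that restrains the phosphatase opposing Cdk1, read 8.81, 8.82 and 8.94 against 9.26, 9.30 and 9.29 and rose by 0.43 (SE 0.06, adjusted p = 0.000353).

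Of the chromosomal passenger complex, which corrects kinetochore attachment, Incenp rose by 0.42 (SE 0.06) and the kinase aurB by 0.28 (SE 0.05). The subunit borr of this complex had a change of 0.11 (SE 0.05, adjusted p = 0.167) and did not pass. The genes of this list that fell were SAK, the kinase of centriole duplication, which fell by 0.38 (SE 0.08), and trbl, which promotes the breakdown of String protein and fell by 0.17 (SE 0.05). The paralogue of string used in meiosis, twe, had a mean of 5.76 in S2 control, below the median of all probe sets, and a change of 0.19 (SE 0.08, adjusted p = 0.113). The kinases Wee1, Myt1 and aurA were matched to no probe set here.

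Around fzy, 11 of 18 measured genes of the APC/C and mitotic exit rose, 2 fell and 5 did not pass, with a median change of 0.19. Separase (Sse), the protease that lets sister chromatids part, rose by 0.39 (SE 0.05), its partner thr by 0.36 (SE 0.06) and securin (pim), which fzy targets, by 0.35 (SE 0.07). The gene ebi rose by 0.29 (SE 0.05).

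Of the subunits of the APC/C itself, ida rose by 0.40 (SE 0.07), APC10 by 0.22 (SE 0.06) and Cdc16 by 0.20 (SE 0.05). APC4 (change 0.13, adjusted p = 0.108), Cdc23 (0.10, 0.394), Cdc27 (0.02, 0.836) and shtd (0.02, 0.901) did not pass. These subunits are named here after their values were seen. The subunit gene morula (mr) read 9.62, 9.67 and 9.59 in S2 control and 9.20, 9.21 and 9.28 in induced cells, and fell by 0.40 (SE 0.05, adjusted p = 0.000353). APC7 fell by 0.70 (SE 0.09) from a signal of 6.39, close to the median of all probe sets, to a dim 5.69 below it. The other APC/C activator, fzr, which acts after mitosis and in G1, rose by 0.41 (SE 0.12, adjusted p = 0.0262) from a dim signal of 5.73. Its inhibitor Rca1 rose by 0.25 (SE 0.05), and the female germline activator cort, at 5.82 in S2 control, had a change of 0.08 (adjusted p = 0.592).

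In the last list, of dREAM subunits and related genes, which keep cell cycle and testis genes repressed or active, 2 of 7 measured genes rose, 1 fell and 4 did not pass, with a median change of 0.06. The subunits mip120 and mip130 rose by 0.28 (SE 0.06) and 0.17 (SE 0.05). The member that fell was topi, a zinc finger gene of the testis complex, which fell by 0.78 (SE 0.09).

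**Figure D4:**
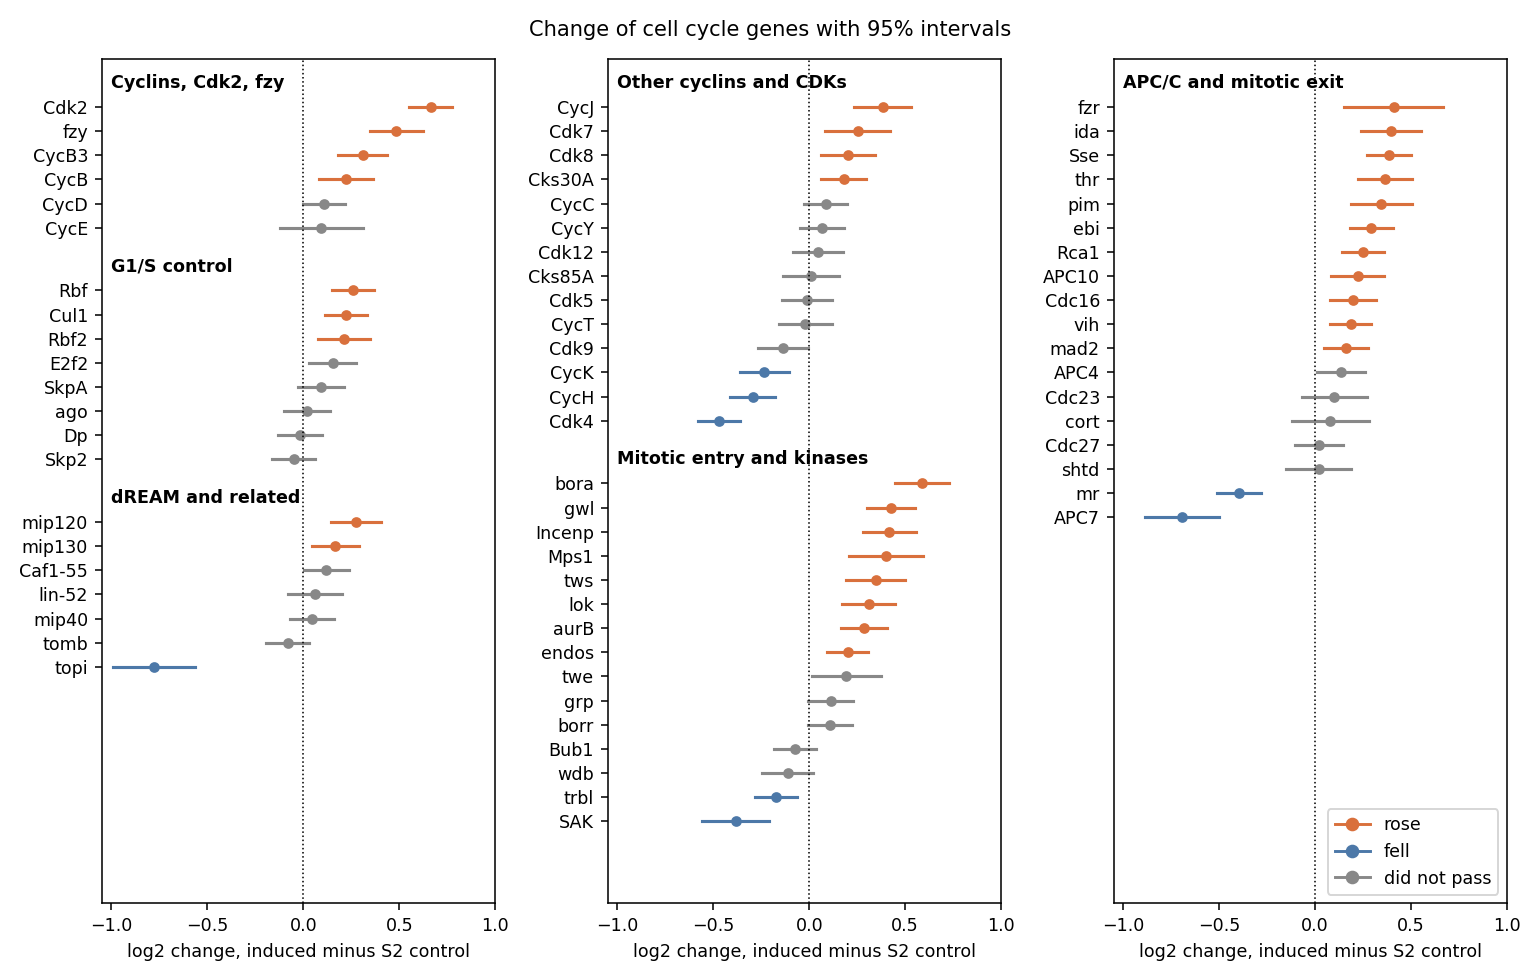
Log2 change (horizontal axis, induced minus S2 control) with its 95% interval from limma for the 6 cyclins, Cdk2 and fzy and for the 62 other cell cycle genes, by list. Orange marks genes that rose, blue genes that fell and grey genes that did not pass, and the APC/C list holds 11 orange and 2 blue genes.

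The genes whose pattern over the 6 arrays was most like that of Cdk2, which had the smallest adjusted p of the 6, were OstDelta, nsl1 and Lime, with Pearson's r of 0.999 each. These r describe 6 arrays that share the difference between the groups. Their own changes were 0.25, 0.27 and 0.90 on the log2 scale.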

How the data were processed

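Total RNA of 6 samples was measured on Affymetrix Drosophila 2.0 arrays, 1 array each. The deposited table holds log2 values that the authors made with RMA, per the submitters' processing notes. RMA subtracts background, brings the arrays to a like distribution and combines the probes of a probe set, so a change shared by all transcripts is removed and small signals are compressed. Its version is not given in the sources used here. After 183 platform controls were left out of 18952 probe sets, 18769 were tested. By the platform annotation 13647 of them name a single gene, 402 name several and 4720 are unnamed here. Symbols were updated through RefSeq's gene table.

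All 6 arrays were fitted with limma 3.58.1 (R 4.3.3, group as the only term, eBayes moderation, two-sided), adjusted by Benjamini-Hochberg over all probe sets at a threshold of 0.05. The fit was checked on simulated arrays, where far fewer probe sets were changed than were called in the data. There it found 13 of 67 log2 changes of 0.25, 63 of 67 of 0.5 and 66 of 66 of 1, so small changes were often missed in the simulation. The share missed in the data cannot be read from this, because the adjusted cut-off depends on how many probe sets change. Each gene was represented by its brightest probe set. The members and lists were chosen with earlier results of these data known. Named genes were all measured members, BigH1, fixed partners and regulators, and up to 3 passing genes per list and direction by adjusted p. Correlations of deviations between same-numbered arrays were 0.04, -0.10 and 0.01, so the numbers were not taken as pairs. Precision is limited by the number of arrays. The alternatives tried were leaving out dim probe sets, 3 scalings, trended robust moderation, array weights, a replicate block, leaving out each array, averaging the probe sets of a gene, and stricter thresholds.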

Additional observations from a re-analysis of the deposited data

How the results depend on the processing

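Cdk2, CycB3, fzy and BigH1 rose and CycD did not pass in all 14 alternative fits run for each. With the replicate block, 3 of the 6 genes rose, as the change of CycB stayed at 0.22 but its adjusted p was 0.0544; the calls of the other 5 were the same under the block. With an array left out, CycB ran from 0.17 to 0.28 (adjusted p 0.0104 to 0.0877) and CycE from 0.0220 to 0.221 (0.0184 to 0.908). The count of the 6 genes that rose then ran from 3 to 4 and that of their probe sets from 4 to 6. For the 62 other cell cycle genes it ran from 17 to 24, beside 1285 to 1554 of all genes. At an adjusted p under 0.01, 3 of the 6 genes rose and 0 fell, and 3 of their probe sets rose. Of the other cell cycle genes 17 rose and 6 fell, beside 1077 and 1279 of all 11982 genes. At a change of at least 2-fold, 0 of the 6 genes, 0 of their probe sets and 0 of the other cell cycle genes rose or fell, while 43 genes rose and 133 fell in all, so that 24.4% of those calls were rises. Cks85A, which did not pass, turned sign when arrays were centred on ribosomal protein genes (-0.00759), with array weights (-0.00316), without induced replicate 2 (-0.0334) and without S2 control replicate 2 (-0.0418, the lowest with an array left out, where the highest was 0.0526). Among the named partners, mip130 lost its call in 9 of 14 alternatives, Cks30A, trbl, Cdk7 and Rbf2 in 5 of 14 each and fzr in 4 of 13, while E2f2 passed in 4 of 14 and twe in 3 of 13. The cause of these moves was not tested, other than the fewer arrays or stricter threshold. Scaling moved the median of all probe sets by under 0.1.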
